A study of Mus musculus with 21 samples.

Results

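The subunits of oxidative phosphorylation were followed in RNA-seq counts of mouse bone marrow c-kit+ cells. Members were the protein-coding genes of the deposited count table whose names begin with those of mitochondrially encoded subunits (mt-Nd, mt-Co, mt-Atp, mt-Cytb) or with Nduf, Uqcr, Cox4 to Cox8 or Atp5, plus the 4 Sdh genes; the Ndufaf assembly factors were left out. This gave 99 of 54532 genes, 13 encoded in mitochondrial DNA (mtDNA) and 86 in the nucleus. The name Atp5o stands for 2 gene identifiers. Cyc1, the cytochrome c1 subunit, has a name outside the rule, and Atp5s, coupling factor B, has a name inside it although it is not counted among the enzyme's subunits.

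The libraries came from C57BL/6 mice, from marrow of femur and tibia enriched on CD117 beads. There were 3 libraries from WT mice, 2 from Asxl1-/- mice, 3 from Jak2V617F mice and 3 from mice labelled Asxl1-/-Jak2V617F, which carry both alleles. The protein made from Asxl1 is a partner of BAP1, an enzyme that removes ubiquitin from histone H2A, and Jak2V617F is a constitutively active form of the JAK2 kinase known from myeloproliferative neoplasms. The labels name no promoter or Cre driver, age or treatment, and do not say whether each replicate was its own mouse; p-values therefore reflect only how far these libraries lie apart, which may be technical. Bulk RNA cannot tell fewer cells of a type from less RNA per cell.

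Oxidative phosphorylation passes electrons through complexes I to IV of the inner mitochondrial membrane, pumps protons, and uses their return through complex V to make ATP. Most subunits are encoded in the nucleus and imported, while a small set is transcribed from mtDNA inside the organelle, and the enzymes need both. Complex II is the only one with no mtDNA-encoded subunit. In blood formation, stem cells are known for relying little on the pathway and for turning to it as they divide and mature.

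Promoters of 4 nuclear members are shown because their transcripts took different courses over the genotypes. Cox6a1 and Atp5k passed the test as higher in each mutant genotype against WT, Ndufv3 was lower in Jak2V617F, and Cox6b2 was at its highest level there. Each run is the 250 bases before the RefSeq start on GRCm38.p6, read 5′ to 3′ on the gene's strand, with matches to the motifs named below in capitals. The positions are chr5:115348959-115349208 on the minus strand for Cox6a1, chr5:108434400-108434649 on the minus strand for Atp5k, chr17:31519865-31520114 on the plus strand for Ndufv3, and chr7:4753095-4753344 on the minus strand for Cox6b2.
Cox6a1: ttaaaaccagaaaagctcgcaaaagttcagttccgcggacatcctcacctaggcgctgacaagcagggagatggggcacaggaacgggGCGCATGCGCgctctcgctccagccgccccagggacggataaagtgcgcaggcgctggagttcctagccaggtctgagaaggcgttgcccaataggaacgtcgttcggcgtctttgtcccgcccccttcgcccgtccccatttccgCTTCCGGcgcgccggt
Atp5k: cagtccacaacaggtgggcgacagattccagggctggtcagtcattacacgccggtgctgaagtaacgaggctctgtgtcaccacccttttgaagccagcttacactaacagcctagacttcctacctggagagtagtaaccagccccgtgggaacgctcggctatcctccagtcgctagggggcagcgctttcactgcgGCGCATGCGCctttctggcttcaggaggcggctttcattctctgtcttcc
Ndufv3: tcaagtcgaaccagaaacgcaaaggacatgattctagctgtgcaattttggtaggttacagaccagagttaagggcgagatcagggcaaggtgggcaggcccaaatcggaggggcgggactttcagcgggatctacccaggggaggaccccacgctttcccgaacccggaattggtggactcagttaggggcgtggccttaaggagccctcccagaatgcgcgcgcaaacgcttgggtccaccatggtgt
Cox6b2: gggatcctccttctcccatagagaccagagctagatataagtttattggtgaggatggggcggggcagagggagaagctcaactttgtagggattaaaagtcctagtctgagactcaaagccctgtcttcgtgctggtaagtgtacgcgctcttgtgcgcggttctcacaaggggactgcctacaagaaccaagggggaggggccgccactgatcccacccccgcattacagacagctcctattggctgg
The capitals in Cox6a1 mark a stretch of 10 bases that holds 2 overlapping matches to the NRF1 motif, 1 on each strand, and an ETS motif. Those in Atp5k mark the same stretch of 10 bases; its promoter also holds 1 ETS match, which lies after the start and so outside the printed bases. Ndufv3 and Cox6b2 hold no match in these letters. RefSeq promoters of 300 bases (250 before to 50 after the start) were matched to 69 of 85 nuclear member names and searched on both strands. GCGCATGCG, the core of the site of nuclear respiratory factor 1, was present in 8 of the 69 (11.6%). It was present in 2.61% of the 17492 protein-coding genes with a RefSeq promoter, which were not restricted to genes tested in these cells. AAGATGGC, a YY1 motif, was present in 10 of 69 (14.5%) against 3.57%, and the ETS core CCGGAAG in 16 of 69 (23.2%) against 12.9%. The TATA letters TATAAA were present in 7 of 69 (10.1%) against 14.8%. A match describes these letters and is not a bound site. Some members of the same course differed in their matches. Atp5b and Atp5g1, which also passed as higher in each mutant genotype, held no NRF1, ETS or YY1 match. Ndufb7, which was lower in Jak2V617F, held 1 ETS match. Whether matches go with the courses of the transcripts was not tested.

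Of the 99 members, 94 passed the filter on low counts, all 13 mtDNA-encoded and 81 nuclear. The 5 that did not were Cox7b2 and Cox8c, with 0 reads in every library, Cox8b and Ndufa4l2, with at most 5 reads in a library, and the second Atp5o identifier. Levels are given as CPM, reads relative to library size after TMM scaling, and are compared between genes only as CPM per kb of the deposited gene length. On that scale the mean over the 11 libraries was highest for mt-Co1, the catalytic core of complex IV, at 4420 CPM per kb, followed by mt-Cytb of complex III at 2076 and mt-Nd1 of complex I at 1659. The highest nuclear member of each complex was Ndufb11 for I (101.0 CPM per kb), Sdhd for II (141.3), Uqcr10 for III (143.9), Cox8a for IV (386.5) and Atp5b, the catalytic β subunit, for V (356.5).

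Of the 13 mtDNA-encoded members, 6 were counted at levels far under their neighbours. The mean level was 41.1 CPM per kb for mt-Co2, 27.8 for mt-Atp6, 22.4 for mt-Co3, 33.3 for mt-Nd3, 10.6 for mt-Nd4l and 2.16 for mt-Atp8, while the lowest of the other 7 was mt-Nd6 at 539 CPM per kb. These 6 genes lie in a stretch of mtDNA whose gene order, inverted, also appears in the table as 7 pseudogenes in a row on chromosome 1, from 24611535 to 24616197 (mm10, 4663 bases). The pairing rests on positions in the table, with no sequence compared: in 6 of the 7 pairs the mtDNA gene's start plus the end of its copy gave the same number within 1 base, as the other two ends did for mt-Co1, whose copy is partial. The copy spans 99.0% to 99.9% of mt-Co2, mt-Atp6, mt-Co3, mt-Nd3 and mt-Nd4l, and 63.6% of mt-Nd4 and 31.8% of mt-Co1; mt-Atp8 lies inside the stretch with no pseudogene of its own. mt-Co2 had 397 to 607 reads per library and its copy Gm28661 had 198 to 340, whereas mt-Co1, the next gene on mtDNA, had 94201 to 153314. Reads from the 6 genes and their copies cannot be told apart in these counts, how multiply mapping reads were treated is not given in the sources used here, and the part of the copy in the low counts was not tested. The 6 genes held 0.498% to 0.721% of the mtDNA-encoded members' reads, so sums over the mtDNA-encoded members rest on the other 7. Below, changes of the 6 are given apart from those of the 7.

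**Figure D1:**
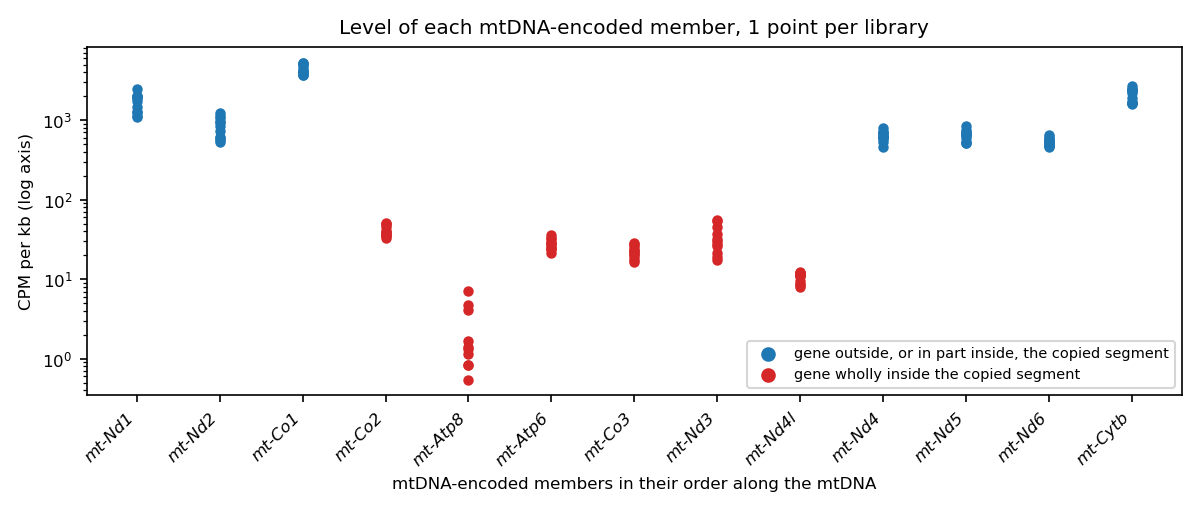
CPM per kb of each mtDNA-encoded member on a log axis, in the order of the genes along mtDNA, with 1 point per library over all 4 genotypes. The 6 genes inside the stretch copied on chromosome 1 sit between the levels of mt-Atp8 (mean 2.16 CPM per kb) and mt-Co2 (41.1), all under mt-Nd6 (539); 1 library in which mt-Atp8 had 0 reads has no point.

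Total counts per library ranged from 16198011 to 19196283. Asxl1 was 89.0 to 100.4 CPM in the 5 libraries labelled Asxl1-/- or Asxl1-/-Jak2V617F and 131.8 to 195.9 CPM in the other 6. Kit, the receptor used for enrichment, was 218.8 to 338.3 CPM in all 11, and the 6 stem and progenitor markers summed to 583 to 653 CPM in Jak2V617F and 721 to 973 CPM in the other genotypes. Among them Cd34 was at 14.6 to 22.1 CPM in Jak2V617F against 111 to 204 elsewhere, and Hlf at 2.25 to 3.38 against 12.0 to 22.9. The other marker lists set the Jak2V617F libraries apart as well: 10 granulocyte genes summed to 2550 to 5600 CPM there against 40500 to 67900 in the other genotypes, 15 erythroid genes to 6880 to 8670 against 1750 to 3900, and 6 dendritic and MHC class II genes to 2100 to 2890 against 205 to 454. The 8 B, T and NK markers were at 83.9 to 228 CPM in Jak2V617F and 218 to 404 elsewhere, and the 6 stroma and fat markers at 18.1 to 22.6 against 54.9 to 76.6. Most of this last sum was Pecam1, at 16.7 to 21.0 CPM in Jak2V617F and 44.1 to 67.8 elsewhere. Cxcl12, Col1a1 and Lepr were lower there without overlap but at low levels, and Col1a2 (1.28 to 1.93 CPM) overlapped the other genotypes. Adipoq, at 0 in Jak2V617F, was at most 0.366 CPM in any library. Asxl1-/- stood apart from WT on 3 of these sums, given with that comparison. The sums move with the comparisons below, and their part in the members' differences was not tested. Summed reads of the Y-linked genes Ddx3y, Eif2s3y, Kdm5d and Uty exceeded those of Xist in 3 libraries, both Asxl1-/- and Jak2V617F 2. These are called the libraries with Y-linked reads below. Among the 3 WT libraries, WT 1 was the highest for 50 of the 81 nuclear members and WT 2 the lowest for 59.

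Summed over members, nuclear transcripts took a larger share of the counts in every mutant library than in any WT library. They made up 0.989%, 0.807% and 0.879% of counts in WT 1 to 3, 1.085% and 1.055% in Asxl1-/-, 1.254%, 1.204% and 1.323% in Jak2V617F, and 1.029%, 1.093% and 1.145% in Asxl1-/-Jak2V617F. The lowest mutant library, Asxl1-/-Jak2V617F 1, was thus above the highest WT library, WT 1, by a small margin. The mtDNA-encoded transcripts made up 1.488%, 1.181% and 1.226% in WT, 1.480% and 1.502% in Asxl1-/-, 1.842%, 1.706% and 1.531% in Jak2V617F, and 1.120%, 1.243% and 1.151% in Asxl1-/-Jak2V617F. The 3 Jak2V617F libraries were above all others on this share, although on the CPM scale Jak2V617F 3, at 14560 CPM, was below both Asxl1-/- libraries (16180 and 16280 CPM), and Asxl1-/-Jak2V617F lay within or below the WT range.

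The ratio of mtDNA-encoded to nuclear member counts was lowest in the 3 Asxl1-/-Jak2V617F libraries. It was 1.089, 1.137 and 1.005 there, 1.504, 1.464 and 1.395 in WT, 1.363 and 1.423 in Asxl1-/-, and 1.470, 1.417 and 1.157 in Jak2V617F. Asxl1-/-Jak2V617F overlapped no other genotype, although Jak2V617F 3 came close. The mean log2 ratio was 0.105 ± 0.0905 (SD, n = 3) in Asxl1-/-Jak2V617F, 0.540 ± 0.0548 in WT (n = 3), 0.478 ± 0.0437 in Asxl1-/- (n = 2) and 0.423 ± 0.186 in Jak2V617F (n = 3). Asxl1-/-Jak2V617F was thus lower by 0.43 than WT, 0.32 than Jak2V617F and 0.37 than Asxl1-/- on the log2 scale; as a score over the members it has no test. mt-Co1 alone held 44.6% to 53.3% of the mtDNA-encoded reads. Without it the difference from Jak2V617F was −0.47, and with the median member in place of the sum the difference from Asxl1-/- was 0.03, the median of the 13 being the least abundant of the 7, mt-Nd6. With the median member, Asxl1-/-Jak2V617F also overlapped Jak2V617F.

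**Figure D2:**
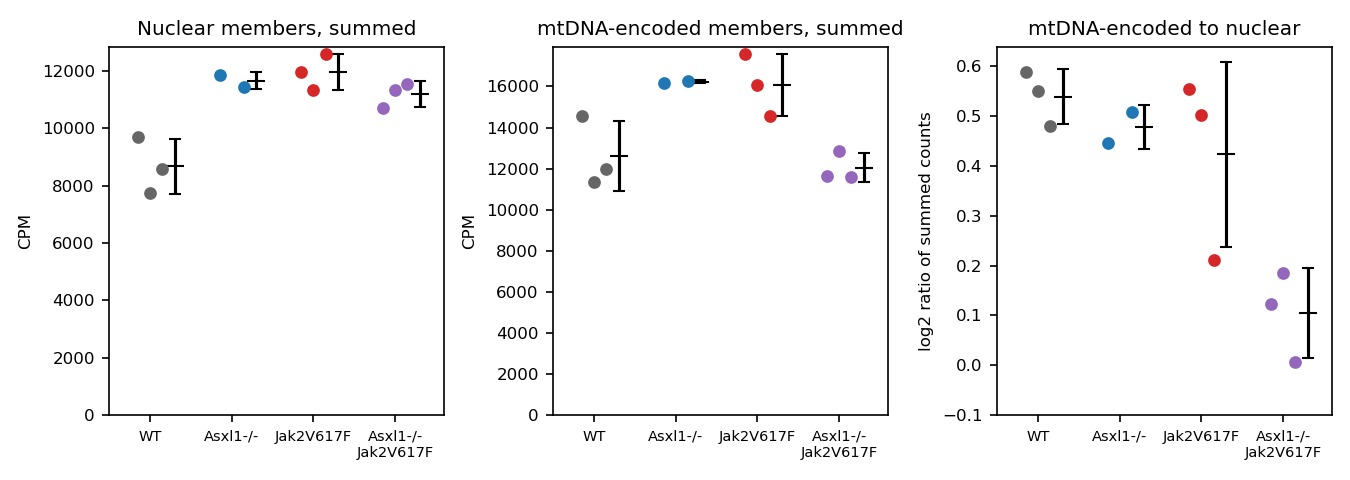
Left and middle, CPM summed over the 86 nuclear and the 13 mtDNA-encoded members per library; right, log2 ratio of the summed counts. Points are libraries and bars are the group mean ± SD (n = 3, and 2 for Asxl1-/-); on the right the 3 Asxl1-/-Jak2V617F libraries lie lowest, with a mean of 0.105 against 0.540 in WT.

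In Jak2V617F against WT, nuclear members were mostly higher. Of the 81 tested, 45 rose and 3 fell by edgeR's quasi-likelihood test (adjusted p under 0.05 over all 16262 genes), with a median log2 fold change of 0.38. Over all genes tested, 24.4% rose and 29.2% fell, with a median of −0.05. Complex III had the largest share, 7 of 8 (median 0.52), and complex V had 11 of 16 (median 0.47), complex II 3 of 4 (median 0.46) and complex IV 7 of 16 higher and 1 lower (median 0.30). Of the 7 nuclear core subunits of complex I, which carry the flavin and iron-sulfur clusters, 6 rose (median 0.50), and of its 29 accessory subunits 11 rose and 2 fell (median 0.20). The difference between these classes was not tested, and they differ in median gene length, 2178 against 1251 bases.

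Atp5g1, 1 of the 3 genes that encode the same mature c subunit of the complex V rotor, rose most among nuclear members. It was at 108.4, 81 and 91.1 CPM in WT 1 to 3 and at 169.6, 163.4 and 203.5 CPM in Jak2V617F, with no overlap. Its log2 fold change was 0.93 ± 0.11 (SE, adjusted p = 3.75e-05). The other large rises were Ndufs1 (0.80 ± 0.12), the largest iron-sulfur core subunit of complex I, Atp5g3 (0.79 ± 0.16), Atp5b (0.79 ± 0.12), Ndufa10 (0.74 ± 0.11), an accessory subunit of complex I, and Atp5d (0.70 ± 0.14), the δ subunit of the complex V stalk, with adjusted p from 0.000124 to 0.00165. Ndufs1 was at 108.4, 98.6 and 116.9 CPM in WT and at 189.9, 178.4 and 195.3 CPM in Jak2V617F. The groups did not overlap for any of these 6, and 4510 of all 16262 genes tested were likewise higher in every Jak2V617F library.

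The nuclear members that fell numbered 3 in Jak2V617F against WT. Ndufv3, an accessory subunit of the NADH-oxidising module of complex I (ENSMUSG00000024038, chromosome 17, 31520115 to 31531326, plus strand), was at 49.4, 56.0 and 52.4 CPM in WT 1 to 3 and at 30.8, 30.5 and 30.8 CPM in Jak2V617F. Its log2 fold change was −0.78 ± 0.08 (adjusted p = 8.6e-06), and the Jak2V617F libraries lay below all 8 others. Ndufb7, an accessory subunit of the membrane arm, was at 89.3, 88.6 and 94.6 CPM in WT and at 69.4, 68.5 and 72.9 CPM in Jak2V617F (log2 fold change −0.37 ± 0.07, adjusted p = 0.000653). Cox6a2, the heart and skeletal muscle form of a complex IV subunit, was at 2.05 to 2.25 CPM in WT and 0.475 to 1.13 CPM in Jak2V617F (log2 fold change −1.24 ± 0.37, adjusted p = 0.013). Without WT 1 and the 3 libraries with Y-linked reads, the adjusted p of Cox6a2 was 0.0534. The 6 muscle markers, Myh4 and Mb at 0 there, summed to 2.74 to 3.65 CPM in Jak2V617F and 0.844 to 1.52 in WT, where Myh4 was also at 0. Of the 6 only Actn3 did not overlap WT, at 1.85 to 2.06 CPM in Jak2V617F against 0.224 to 0.563.

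**Figure D3:**
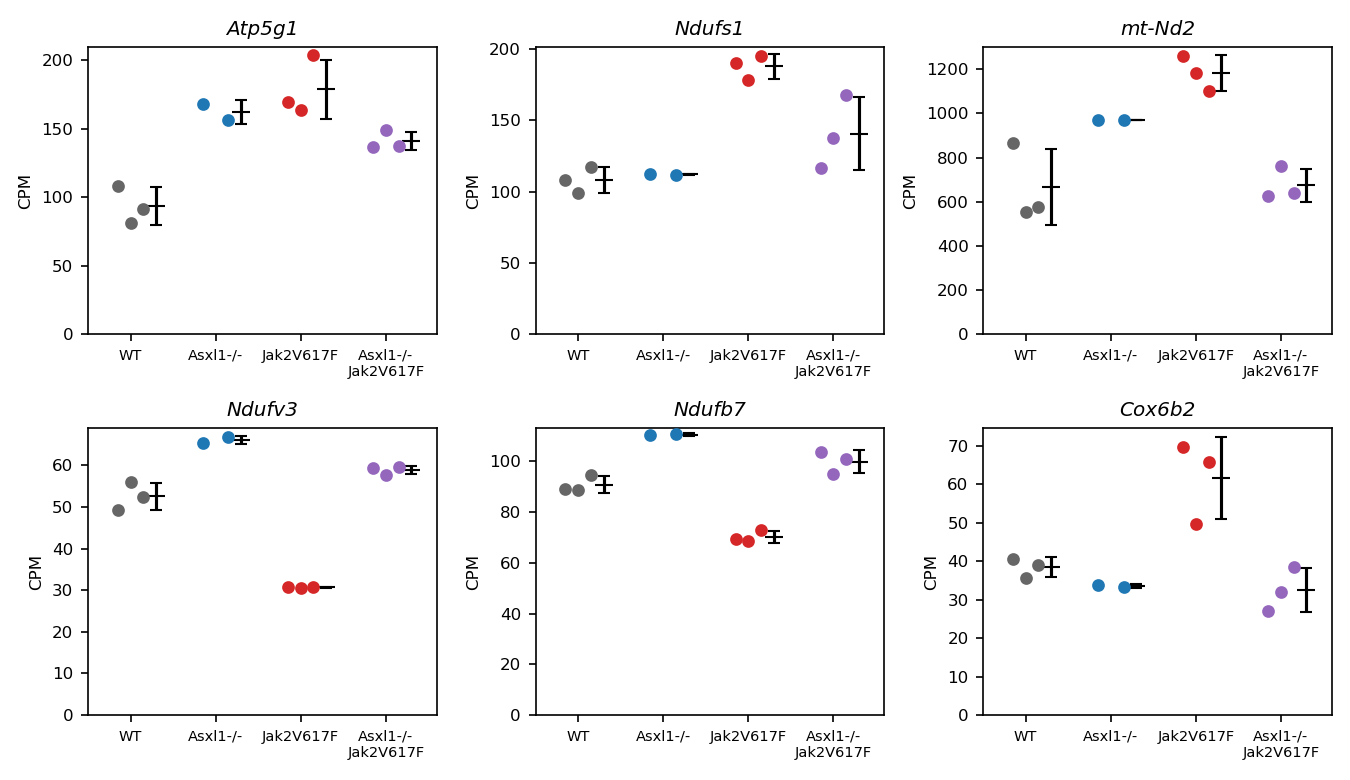
CPM per library of 6 members, with bars for the group mean ± SD (n = 3, and 2 for Asxl1-/-) and axes from 0. Atp5g1 is lowest in WT, Ndufs1 and mt-Nd2 are highest in Jak2V617F, Ndufv3 (30.5 to 30.8 CPM) and Ndufb7 (68.5 to 72.9 CPM) are lowest in Jak2V617F, and Cox6b2 is highest there (49.6 to 69.8 CPM).

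Of the 13 mtDNA-encoded members, 5 rose in Jak2V617F against WT, where 24.4% of all genes rose and 29.2% fell, and none fell (0 at an unadjusted p under 0.05 by edgeR, and 0 by DESeq2), with a median log2 fold change of 0.20. Without WT 3 the count was 3. mt-Nd2, a proton-pumping subunit of complex I, was at 864.3, 554.7 and 577.5 CPM in WT 1 to 3 and at 1262, 1184 and 1100 CPM in Jak2V617F. Its log2 fold change was 0.83 ± 0.15 (adjusted p = 0.000777), and the groups did not overlap although WT 1 stood well above the other WT libraries. mt-Nd1 rose by 0.67 ± 0.17 (adjusted p = 0.00532), mt-Cytb by 0.43 ± 0.12 (0.0118) and mt-Nd5 by 0.40 ± 0.13 (0.0232). The call of mt-Cytb was lost without WT 3 (adjusted p = 0.0551), and that of mt-Nd5 without Jak2V617F 1, WT 2 or WT 3 (up to 0.0943). The fifth was mt-Nd3, inside the copied stretch, at 6.14 to 11.1 CPM in WT and 15.7 to 19.2 CPM in Jak2V617F (log2 fold change 1.0 ± 0.22, adjusted p = 0.00214). mt-Co1 (0.20 ± 0.11), mt-Nd4 (0.22 ± 0.10) and mt-Nd6 (0.15 ± 0.11), the only member transcribed from the other mtDNA strand, did not pass.

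In Asxl1-/- against WT, 49 of 81 nuclear members rose, with a median log2 fold change of 0.41, against 11.3% of all genes higher and 11.2% lower. None fell (0 at an unadjusted p under 0.05 by edgeR, and 0 by DESeq2). Of the core subunits of complex I 5 of 7 rose (median 0.35), and of the accessory subunits 17 of 29 (median 0.45). Complex II had 1 of 4 higher (median 0.34), III 6 of 8 (0.37), IV 9 of 16 (0.39) and V 11 of 16 (0.48). Beside these counts, the granulocyte markers summed to 66700 to 67900 CPM in Asxl1-/- against 44700 to 60100 in WT, the B, T and NK markers to 327 to 404 against 237 to 280, and the stroma and fat markers to 68.4 to 76.6 against 56.7 to 65.5, without overlap. Most of the stroma and fat sum was again Pecam1, at 60.2 to 67.8 CPM against 44.1 to 60.6, which overlap. The count of 49 rested on few libraries: it was 9 without Asxl1-/- 1, 21 without Asxl1-/- 2, 27 without WT 2 and 32 without WT 3. With a term for sex, which leaves little independent of genotype because both Asxl1-/- libraries have Y-linked reads, it was 5.

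Atp5k, the small membrane subunit e of complex V, rose most in Asxl1-/-. It was at 33.2, 26.5 and 25.9 CPM in WT and 53.9 and 65.2 CPM in Asxl1-/-, a log2 fold change of 1.06 ± 0.18 (adjusted p = 0.0042). Both Asxl1-/- libraries were above all 3 WT libraries. Atp5g1 followed (0.80 ± 0.12, adjusted p = 0.00262), then Atp5e (0.74 ± 0.11, 0.00233), the ε subunit of complex V, Ndufc2 (0.71 ± 0.13, 0.00546) and Ndufa1 (0.68 ± 0.10, 0.00227), both accessory subunits of complex I, and Atp5g3 (0.68 ± 0.18, 0.0212). With the sex term the adjusted p was 0.0982 for Atp5k and 0.0835 for Ndufa1, and without Asxl1-/- 1 it was 0.0637 for Ndufc2. The call of Atp5g3 was lost without either Asxl1-/- library, WT 2 or WT 3, among others (adjusted p up to 0.16). Ndufv3 and Ndufb7, which were lower in Jak2V617F, passed as higher here, by 0.33 ± 0.08 (adjusted p = 0.0174) and 0.28 ± 0.07 (0.0202).

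Among the mtDNA-encoded members 2 of 13 rose in Asxl1-/- against WT (median 0.20), a share near the 11.3% of all genes, and none fell (0 at an unadjusted p under 0.05, and 0 by DESeq2). These were mt-Nd1 (0.62 ± 0.19, adjusted p = 0.0334) and mt-Nd2 (0.54 ± 0.17, 0.0395). Both calls were lost without either Asxl1-/- library, WT 2 or WT 3, with adjusted p up to 0.17 and 0.285. mt-Nd2 was at 971.7 and 969.3 CPM in Asxl1-/-, above WT 1 at 864.3. Without WT 1 the count was 6, and without any 1 of Asxl1-/- 1, Asxl1-/- 2, WT 2 or WT 3 it was 0.

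In Asxl1-/-Jak2V617F against WT, calls were made among nuclear members and not among mtDNA-encoded ones; the difference between the 2 classes was not tested. Of 81 nuclear members 42 rose, with a median log2 fold change of 0.33, against 8.3% of all genes higher and 6.76% lower; none fell (1 at an unadjusted p under 0.05, and 0 by DESeq2). None of the 13 mtDNA-encoded members passed, with a median of −0.09; 1 was lower and 0 were higher at an unadjusted p under 0.05, and DESeq2 called 0. The nuclear count was 6 without WT 2, 11 without WT 3, and 24, 13 and 27 without Asxl1-/-Jak2V617F 1, 2 and 3. It was 54 without WT 1.

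Uqcr11, a small subunit of complex III, was at 54.9, 46.2 and 53.8 CPM in WT and 78.6, 83.0 and 88.8 CPM in Asxl1-/-Jak2V617F. It rose by 0.69 ± 0.09 on the log2 scale (adjusted p = 0.00442), with no overlap. Atp5k rose as much (0.69 ± 0.17, 0.023), and Atp5g1 (0.59 ± 0.11, 0.0111), Atp5g3 (0.59 ± 0.16, 0.0347) and Ndufa5 (0.57 ± 0.14, 0.0243), an accessory subunit of complex I, followed. The calls of Atp5k, Atp5g3 and Ndufa5 were lost without Asxl1-/-Jak2V617F 2 or WT 2, among others, with adjusted p up to 0.0902, 0.116 and 0.0974. mt-Nd2 was at 624.2, 760.2 and 638.1 CPM, within the WT range (log2 fold change 0.02 ± 0.15, adjusted p = 0.946), and mt-Nd1 had a log2 fold change of 0.03 ± 0.17 (0.931). mt-Nd4 was the lowest of the 7 at −0.23 ± 0.10 (0.142).

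The 3 comparisons with WT share the WT libraries, so their counts are not independent. Side by side, 27 of the 81 nuclear members passed as higher in all 3, as did 4.27% of all genes tested. The 27 became 5 without WT 2, 9 without WT 3, 45 without WT 1, 6 and 12 without Asxl1-/- 1 and 2, 11 without Asxl1-/-Jak2V617F 2 and 18 without Asxl1-/-Jak2V617F 1. With the sex term the count was 5. The 27 included Atp5a1 and Atp5b of the complex V head, Atp5g1, Atp5g3 and Atp5k of its membrane part, Uqcr10 and Uqcr11 of complex III, Cox6a1 and Cox7c of complex IV, Sdhd, a membrane anchor of complex II, and Ndufv2, an iron-sulfur core subunit of complex I. Cox6a1, the form of this complex IV subunit found in most tissues, was at 171.6 to 213.3 CPM in WT, 267.2 and 284.8 in Asxl1-/-, 246.1 to 284.1 in Jak2V617F and 236.0 to 241.4 in Asxl1-/-Jak2V617F. Every mutant library was above every WT library for this gene. Of the members just named, Atp5b, Atp5g3, Sdhd and Cox6a1 each lost calls in Asxl1-/- and in Asxl1-/-Jak2V617F against WT without 1 library or another, with adjusted p up to 0.205, 0.16, 0.192 and 0.122.

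**Figure D4:**
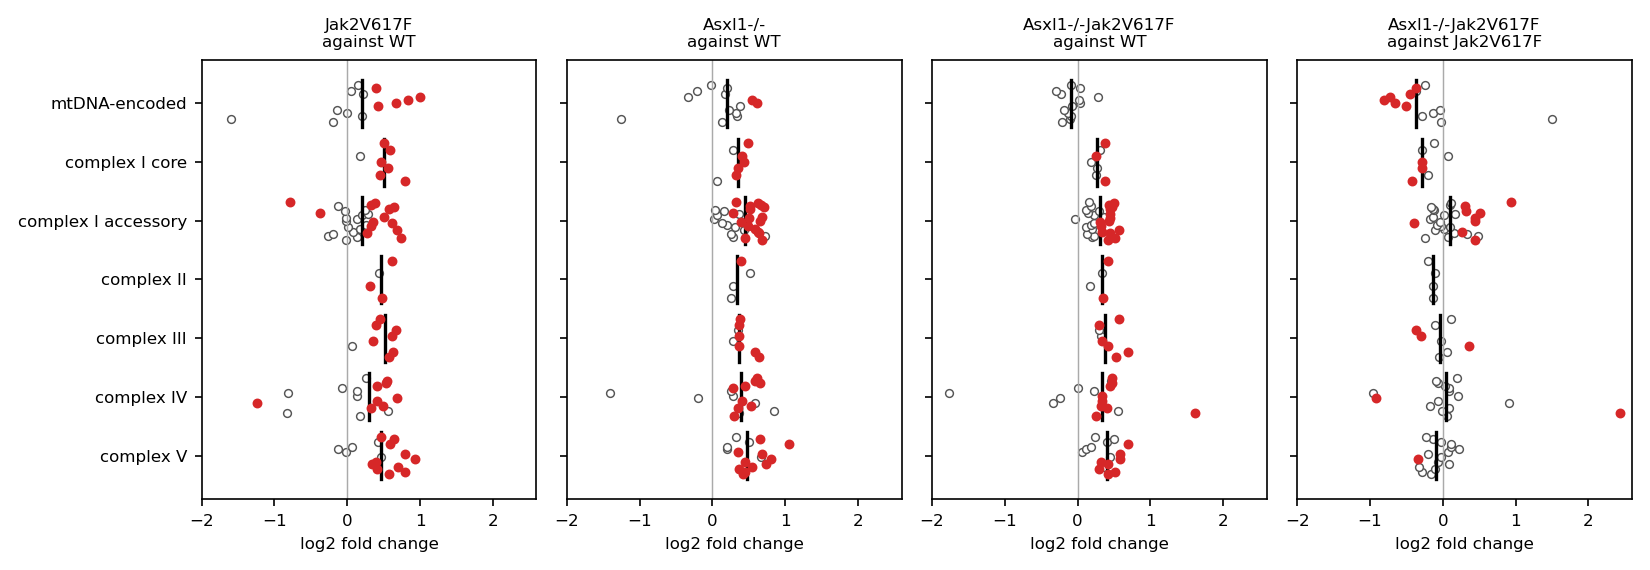
Log2 fold change of each of 93 members in 4 comparisons, grouped by complex and role (Atp5s is not drawn); red points passed the test at an adjusted p of 0.05, open points did not, and black lines are group medians. Medians of the nuclear groups lie right of 0 in the 3 comparisons with WT, and the mtDNA-encoded median is 0.20 in Jak2V617F and in Asxl1-/- and −0.09 in Asxl1-/-Jak2V617F.

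Against Jak2V617F, the mtDNA-encoded members were lower in Asxl1-/-Jak2V617F and the nuclear members moved in both directions. Of the 13 mtDNA-encoded members 6 fell (median −0.36), against 19.8% of all genes lower, and none rose (0 at an unadjusted p under 0.05, and 0 by DESeq2). Of 81 nuclear members 10 rose, against 24.5% of all genes, and 8 fell, with a median of −0.03. The nuclear shares were thus under those of all genes in both directions. The count of nuclear members that fell was 3 without Asxl1-/-Jak2V617F 1 or Jak2V617F 3, 5 without Asxl1-/-Jak2V617F 2 or Jak2V617F 1, and 13 without WT 1.

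mt-Nd2 fell by 0.81 ± 0.15 on the log2 scale (adjusted p = 0.00125), from 1100 to 1262 CPM in Jak2V617F to 624.2 to 760.2 CPM. mt-Nd1 was at 2336, 1855 and 1812 CPM in Jak2V617F 1 to 3 and at 1218, 1407 and 1209 CPM in Asxl1-/-Jak2V617F. It fell by 0.65 ± 0.17 (adjusted p = 0.00852), with no overlap. mt-Cytb fell by 0.51 ± 0.12 (0.00573), mt-Nd4 by 0.45 ± 0.10 (0.00404) and mt-Nd5 by 0.36 ± 0.13 (0.0404), as did mt-Nd3 of the copied stretch by 0.72 ± 0.22 (0.0171). The call of mt-Nd5 was lost without any of Asxl1-/-Jak2V617F 1 or 3, Jak2V617F 1 or 2 or an Asxl1-/- library and with the sex term (adjusted p up to 0.132), and that of mt-Nd3 without Asxl1-/-Jak2V617F 1 or 2 (up to 0.0687). All 7 abundant mtDNA-encoded members were lower in every Asxl1-/-Jak2V617F library than in any Jak2V617F library, mt-Co1 (−0.29 ± 0.11, adjusted p = 0.0593) and mt-Nd6 (−0.24 ± 0.11, 0.107) included. So were 2 of the 6 members inside the copied stretch, and 4145 of all 16262 genes tested.

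Of the 10 nuclear members that rose in Asxl1-/-Jak2V617F against Jak2V617F, 8 were among the 29 accessory subunits of complex I (median 0.10, 1 lower), a share near the 24.5% of all genes that rose. Ndufv3 was at 59.4, 57.8 and 59.6 CPM in Asxl1-/-Jak2V617F against 30.5 to 30.8 in Jak2V617F and rose by 0.94 ± 0.08 (adjusted p = 2.79e-06). Ndufb7 rose by 0.51 ± 0.07 (9.64e-05), and Ndufb11 (0.45 ± 0.09, 0.0014), Ndufa1 (0.45 ± 0.09, 0.00197) and Ndufb3 (0.45 ± 0.12, 0.0115) followed. For each of these 5 the 3 Asxl1-/-Jak2V617F libraries were above the 3 Jak2V617F libraries, as for 4616 of all 16262 genes tested. The call of Ndufb3 was lost without Asxl1-/-Jak2V617F 1 (adjusted p = 0.0524). Of the 7 core subunits none rose (median −0.28) and 3 fell, Ndufs1 by 0.42 ± 0.12 (0.0116) among them. Ndufs1 was at 116.6, 137.5 and 167.5 CPM in Asxl1-/-Jak2V617F, a wide spread, with all 3 under the lowest Jak2V617F library at 178.4.

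Other nuclear members fell as well. Ndufab1, the mitochondrial acyl carrier protein that also serves complex I, fell by 0.39 ± 0.11 (adjusted p = 0.0121). Uqcrfs1, the Rieske iron-sulfur protein of complex III, fell by 0.37 ± 0.13 (0.0325), and Uqcrc2, a core protein of the same complex, by 0.30 ± 0.11 (0.039). Atp5g1 fell by 0.34 ± 0.11 (0.027). The calls of Uqcrfs1, Uqcrc2 and Atp5g1 were lost without Asxl1-/-Jak2V617F 1 or Jak2V617F 3, among others (adjusted p up to 0.119, 0.133 and 0.101). No complex II member passed in either direction (median −0.13).

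Against Asxl1-/-, no member passed in Asxl1-/-Jak2V617F by edgeR, where 3.31% of all genes were higher and 2.22% lower. At an unadjusted p under 0.05, 2 nuclear members were higher and 10 lower, and 1 mtDNA-encoded member was higher and 6 lower; DESeq2 called 3 nuclear and 5 mtDNA-encoded members lower and 0 higher. The medians were −0.09 for nuclear and −0.41 for mtDNA-encoded members. mt-Nd4 was at 941.2 and 978.4 CPM in Asxl1-/- and 637.2, 727.3 and 799.5 CPM in Asxl1-/-Jak2V617F, without overlap (log2 fold change −0.41 ± 0.11, adjusted p = 0.0578). mt-Co1 was next (−0.43 ± 0.13, 0.0742), at 8028 and 8112 CPM against 5754 to 6274. With the 2 groups fitted alone 2 mtDNA-encoded members passed as lower, with no filter 3 did, without WT 1 the count was 4, and without Asxl1-/-Jak2V617F 3 it was 1. Without WT 1, 1 nuclear member passed as lower.

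The interaction term asks whether the effect of Asxl1 loss differed between the Jak2V617F and WT backgrounds. Of 81 nuclear members 43 had a lower effect of Asxl1 loss in the Jak2V617F background and 2 a higher one (median −0.48), against 17.9% lower and 23.7% higher over all genes (median 0.10). Of the 13 mtDNA-encoded members 6 were lower and none higher (0 at an unadjusted p under 0.05, and 0 by DESeq2; median −0.46), all 6 among the 7 abundant ones. All 7 core subunits of complex I were lower (median −0.56), as were 12 of 29 accessory subunits, with 1 higher (median −0.23), and 11 of 16 complex V members (median −0.62). The nuclear count was 26 without either Asxl1-/- library and 10 with the sex term, and the mtDNA-encoded count with that term was 2.

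The smallest adjusted p among members was that of Atp5g1 (−1.14 ± 0.17, 0.000423), whose log2 fold change on Asxl1 loss was 0.80 in the WT background and −0.34 in the Jak2V617F background. mt-Nd2 (−1.35 ± 0.23, 0.000937) and mt-Nd1 (−1.27 ± 0.25, 0.00231) likewise rose on Asxl1 loss in the WT background and fell on it in the Jak2V617F background. Ndufv3 rose in both, by 0.33 and 0.94, and had an interaction of 0.61 ± 0.11 (0.00175). With the sex term the adjusted p of Ndufv3 was 0.0602. The other member with a higher effect was Cox4i2 (2.08 ± 0.76, 0.0451), whose call was lost under 13 of the alternative fits, DESeq2 included (adjusted p up to 0.439).

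Tissue-restricted isoforms of complex IV were a small share of their pairs, with 1 exception. Cox4i2, a form known from lung and low oxygen, had 21 reads over the 3 WT libraries, 18 in Asxl1-/-, 13 in Jak2V617F and 65 in Asxl1-/-Jak2V617F. It made up 0.757% ± 0.339 (SD, n = 3) of Cox4i reads per kb in Asxl1-/-Jak2V617F and 0.141% ± 0.0213 in Jak2V617F, a log2 fold change of 2.44 ± 0.50 (adjusted p = 0.00197), and against WT 1.61 ± 0.47 (0.0402), a call lost under 11 alternatives. Cox6a2 made up 0.172% to 1.34% of the Cox6a reads per kb, and Cox7a1, the muscle form, 0.104% to 1.48% of the Cox7a set.

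The exception was Cox6b2, known as a testis form, which made up 17.7% to 18.8% of Cox6b reads per kb in WT, 12.3% and 13.5% in Asxl1-/-, 18.8% to 23.2% in Jak2V617F and 11.7% to 14.8% in Asxl1-/-Jak2V617F. Its level was 40.7, 35.6 and 38.9 CPM in WT 1 to 3, 33.8 and 33.2 in Asxl1-/-, 69.8, 49.6 and 65.7 in Jak2V617F and 26.9, 32 and 38.5 in Asxl1-/-Jak2V617F. The Jak2V617F libraries were above all others. It rose by 0.68 ± 0.15 in Jak2V617F against WT (adjusted p = 0.0021) and fell by 0.92 ± 0.15 in Asxl1-/-Jak2V617F against Jak2V617F (0.00039). Of the summed reads per kb of the 3 genes for the c subunit, Atp5g1 held 10.3% to 13.1% in WT and 13.6% to 14.7% in Jak2V617F, and Atp5g2 held 40.6% to 44.8% and 35.7% to 39.1%, without overlap. Atp5g3 held 43.3% to 46.3% in WT and 46.1% to 50.7% in Jak2V617F, which overlap. Cox7a2 and Cox7a2l, the latter a factor of supercomplex assembly, held the rest of the Cox7a set at 41.3% to 49.8% and 49.4% to 57.4%. Cox4i1 made up 98.9% to 99.9% of its pair. Ndufa12, an accessory subunit of complex I singled out after its values were seen, varied within groups, from 10.8 to 35.4 CPM in WT and from 13.9 to 45.3 CPM in Asxl1-/-Jak2V617F, and passed in no comparison.

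Genes that build and feed the complexes were counted from lists, to be read against the share of all genes called: 24.4% higher and 29.2% lower in Jak2V617F against WT, 11.3% and 11.2% in Asxl1-/- against WT, 8.3% and 6.76% in Asxl1-/-Jak2V617F against WT, and 24.5% and 19.8% in Asxl1-/-Jak2V617F against Jak2V617F. Of 77 mitochondrial ribosomal proteins, which translate the mtDNA-encoded subunits, 67 rose and 2 fell in Jak2V617F against WT (median 0.58). In Asxl1-/- against WT 53 rose and none fell, and in Asxl1-/-Jak2V617F against WT 38 rose and none fell. Mrps7 rose by 0.81 ± 0.09 (adjusted p = 1.53e-05) in Jak2V617F, whereas Mrpl33 fell by 1.03 ± 0.11 (2e-05). Against Jak2V617F, 24 of the 77 fell in Asxl1-/-Jak2V617F and Mrpl33 alone rose, by 0.87 ± 0.11 (9.32e-05). Of 22 import translocase genes, 18, 17 and 13 rose in Jak2V617F, Asxl1-/- and Asxl1-/-Jak2V617F against WT, and 12 fell and 1 rose in Asxl1-/-Jak2V617F against Jak2V617F. Tomm40, the outer membrane channel, rose by 1.0 ± 0.11 (2.02e-05) in Jak2V617F and was lower by 0.44 ± 0.11 (0.00695) in Asxl1-/-Jak2V617F than there.

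Of 25 genes for mtDNA transcription and RNA processing, 17 rose and none fell in Jak2V617F against WT (median 0.65), and 14 fell and none rose in Asxl1-/-Jak2V617F against Jak2V617F (median −0.35). Tfam, which packages mtDNA and starts its transcription, rose by 0.70 ± 0.09 (adjusted p = 5.8e-05) in the first and fell by 0.49 ± 0.09 (0.00105) in the second. Polrmt, the mitochondrial RNA polymerase, fell by 0.59 ± 0.11 (0.00153) in the second, and Lrpprc, which stabilises mt-mRNAs, rose by 0.88 ± 0.10 (1.77e-05) and fell by 0.59 ± 0.10 (0.000397). In Asxl1-/- against WT 5 were higher and 1 lower, and in Asxl1-/-Jak2V617F against WT 4 were higher and 0 lower. Of 12 genes for mtDNA replication and nucleotide supply, 3 rose and 5 fell in Jak2V617F, 0 and 3 in Asxl1-/-, and 0 and 2 in Asxl1-/-Jak2V617F, each against WT, and 1 rose and 3 fell in Asxl1-/-Jak2V617F against Jak2V617F. In Jak2V617F against WT the 3 of 12 that rose are a share near the 24.4% of all genes. Twnk, the mtDNA helicase, rose by 0.68 ± 0.14 (0.00181) in Jak2V617F and fell by 0.55 ± 0.14 (0.00837) in Asxl1-/-Jak2V617F against it.

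Of 19 genes of the TCA cycle and pyruvate dehydrogenase, 16 rose and 1 fell in Jak2V617F, 8 rose in Asxl1-/- and 12 in Asxl1-/-Jak2V617F, each against WT, and 1 rose and 8 fell in Asxl1-/-Jak2V617F against Jak2V617F. Cs, citrate synthase, rose by 0.86 ± 0.09 (adjusted p = 1.07e-05) in Jak2V617F and fell by 0.45 ± 0.09 (0.00133) in Asxl1-/-Jak2V617F against it, and Idh2 was the one that rose there (1.19 ± 0.12, 9.06e-06). Of 25 electron carriers and ATP exporters, 15 rose and 2 fell, 11 rose, and 9 rose in the same 3 comparisons with WT, and 2 rose and 4 fell against Jak2V617F. Of 46 assembly factors, 19 rose and 3 fell, 13 rose and 1 fell, and 6 rose and 1 fell against WT, with Tmem70 of complex V at 0.73 ± 0.09 (4.41e-05) in Jak2V617F, and 4 rose and 10 fell against Jak2V617F. Of 17 genes of the mitochondrial stress response, 13 rose and 1 fell, 6 rose, and 11 rose against WT, and 3 rose and 8 fell against Jak2V617F. Of 11 regulators of mitochondrial biogenesis, 3 rose and 3 fell, 0 and 1, and 0 and 1 against WT, and 3 rose and 2 fell against Jak2V617F. In Jak2V617F against WT these shares of the regulators are near those of all genes, 24.4% higher and 29.2% lower. Among them Pprc1, a PGC-1-related coactivator, rose by 0.86 ± 0.10 (2.7e-05) in Jak2V617F and fell by 0.88 ± 0.10 (3.14e-05) in Asxl1-/-Jak2V617F against Jak2V617F.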

How the data were processed

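RNA of c-kit+ marrow cells was measured in 11 libraries. The authors deposited raw counts per Ensembl gene, with gene positions, lengths and biotypes. HISAT2 2.0.5, featureCounts 1.5.0-p3, DESeq2 1.16.1 and mm10 are named, without roles, per the submitters' processing notes. How strand and multiply mapping reads were handled, and which annotation release was used, is not given in the sources used here, so antisense, overlapping and near-identical genes are uncertain. The ChIP and ATAC libraries were left out and are not analysed here.

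Genes were filtered with filterByExpr by genotype, which left 16262. After TMM scaling, all 11 libraries entered 1 robust quasi-likelihood fit of edgeR 4.0.16 under R 4.3.3, with genotype as the factor (common biological coefficient of variation 19.7%). P-values were adjusted by Benjamini-Hochberg across the 16262 genes, and 0.05 was the threshold for a call. The SE of a log2 fold change is its size divided by the square root of its F statistic. The script was tested on simulated data. Chi-square per degree of freedom between replicates was 7.75 to 33.1, so no pair was merged as 1 library.

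Members and gene lists were chosen with earlier results of these data known. The text names every mtDNA-encoded member, paired isoforms, up to 6 rising and 6 falling nuclear members per comparison, the 10 interactions of smallest adjusted p, the most abundant member per complex and up to 4 genes per list; further members are named as examples of the shared calls. Alternatives were DESeq2 1.42.0, other scalings, filters, gene sets and fits, a replicate block, a sex term and leaving out each library. Added after seeing the data were each mtDNA gene summed with its chromosome 1 copy, and leaving out WT 1 with the libraries with Y-linked reads. Sequences are from RefSeq (GRCm38.p6).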

Additional observations from a re-analysis of the deposited data

Results flagged for a closer look

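By the interaction term of the edgeR fit, members whose effect of Asxl1 loss differed mostly had a lower one in the Jak2V617F background than in the WT background. Of 94 tested, 49 were lower and 2 higher (adjusted p under 0.05), against 17.9% lower and 23.7% higher of all genes tested. In either direction, 54.3% of the members tested and 41.6% of all genes tested were called. The 10 members below were singled out as those of smallest p among the members called. Of the mtDNA-encoded ones, mt-Nd2 had an interaction of −1.35, mt-Nd1 of −1.27 and mt-Cytb of −0.90 on the log2 scale. Of the nuclear ones, Atp5g1 had −1.14, Ndufc2 −0.86, Cox7c −0.72, Cox6a1 −0.70, Ndufs7, an iron-sulfur core subunit of complex I, −0.70, and Uqcr10 −0.69. Ndufv3 was the one with a positive value, 0.61. Of these 10, the calls of mt-Cytb, Cox7c and Ndufv3 were lost with the sex term (adjusted p of 0.0686, 0.0522 and 0.0602).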

How the results depend on the processing

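No named gene changed direction under any alternative where it passed the threshold in the main fit or in that alternative. The mtDNA-encoded to nuclear ratio has no threshold, and its difference changed sign in some settings, given below. Leaving out 1 library at a time, counts of calls ranged as follows: mtDNA-encoded members higher in Jak2V617F against WT, 3 to 7; nuclear members lower in Asxl1-/-Jak2V617F against Jak2V617F, 3 to 13; nuclear and mtDNA-encoded members higher in Asxl1-/- against WT, 9 to 59 and 0 to 6; nuclear members higher in Asxl1-/-Jak2V617F against WT, 6 to 54; nuclear and mtDNA-encoded members lower in Asxl1-/-Jak2V617F against Asxl1-/-, 0 to 1 and 0 to 4; nuclear interactions higher and lower, 1 to 2 and 26 to 50; nuclear members higher in all 3 mutant genotypes, 5 to 45. The mtDNA-encoded count higher in Asxl1-/- against WT (2) was 1 with protein-coding genes only, 0 with the compared groups alone, 0 with the sex term and 4 by DESeq2. Nuclear members higher in all 3 numbered 16 with the compared groups alone and 5 with the sex term. The sex term gave 5 nuclear members higher in Asxl1-/- against WT, and 10 nuclear and 2 mtDNA-encoded interactions lower and 0 nuclear ones higher. The compared groups alone gave 23 nuclear members higher in Asxl1-/-Jak2V617F against WT. In Asxl1-/-Jak2V617F against Asxl1-/-, mtDNA-encoded members lower numbered 3 with no filter, 2 with the groups alone and 5 by DESeq2, which also called 3 nuclear members lower. The 2 nuclear interactions higher became 1 with no filter, a stricter filter or DESeq2. The mtDNA-encoded to nuclear log2 difference in Jak2V617F against WT was −0.12 with the sums and 0.08 without the most abundant member, a change of sign. In Asxl1-/-Jak2V617F against Asxl1-/- it was −0.37 with the sums and 0.03 with the median member, again a change of sign. In Asxl1-/-Jak2V617F against Jak2V617F it went from −0.32 to −0.47 without the most abundant member. In Asxl1-/- against WT it went from −0.06 to −0.45 with the median member. The causes of these changes were not tested, other than that fewer libraries or genes entered some fits.

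Replicate numbers did not pair the libraries: over 15 same-number pairs, deviations from group means correlated between −0.199 and 0.174, and 4 of 11 libraries correlated best with their own number. With a replicate block, 1 mtDNA-encoded member was higher in Asxl1-/- against WT and 1 nuclear interaction was higher; it moved no other count of member calls by over 1.5 times. Adding each mtDNA gene's chromosome 1 copy changed no count of calls. mt-Atp8 (0 to 24 reads per library) and Cox4i2 (4 to 32) are limited by depth.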
